A study of Mus musculus with 35 samples.

Results

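The regions described here are stretches of RNA that carried N6-methyladenosine (m6A) signal near the start of a gene's last exon in mouse neural progenitor cells. They were chosen from measured values: a stretch had to lie under a called peak in all 4 deposited m6A peak lists, and its midpoint had to lie in the first 25% of the last exon, counted in the direction of transcription, of the longest reference-matching transcript of 1 gene with at least 2 exons. The 4 lists shared 10892 such stretches, and 2776 of them met the position rule. They lay in 2512 genes, called hosts below. Of the other stretches, 2016 lay deeper in a last exon, 2500 in internal exons, 1088 in first exons, 1950 outside exons, 463 in genes of a single exon and 99 in exons of more than 1 gene.

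The cells were embryonic neural progenitor cells (NPC) in culture, labelled by Mettl14 genotype as WT, Mettl14 Het or Mettl14 KO. For the engineered allele, exon 2 of Mettl14 was flanked by loxP sites in G4 embryonic stem cells, and the selection cassette was removed with Flpe. Exon 2 was deleted with EIIa-Cre, a transgene active in the early embryo, and Het mice were intercrossed. The genotype labels do not say in which tissues Mettl14 was lost in the KO embryos. The age of the embryos is not given in the sources used here. RNA was sequenced in batch 1 (3 WT, 3 Het and 3 KO libraries, each labelled with its own culture) and batch 3 (WT lines 532 and 541, KO lines 530 and 534), and the tables do not tie a library to a culture. m6A was measured in WT cells only, from 2 immunoprecipitations (named cz3 and cz4) and 2 input libraries (cz1 and cz2) that were combined in every way to give the 4 lists. The lists are therefore not independent of each other. H3K27ac and H3K27me3 ChIP-seq covered the 2 WT and 2 KO lines of batch 3.

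In mammals m6A is written on nuclear RNA by a complex whose core is the enzyme METTL3 and its RNA-binding partner METTL14, helped by adaptors such as WTAP and CBLL1. The mark is known to be dense around stop codons and in long last exons, and exon junction complexes are known to keep it away from sequence close to splice junctions. YTH proteins read it: the cytoplasmic YTHDF proteins promote decay of marked mRNA, and YTHDC1 acts in the nucleus. In neural progenitors, transcripts of many developmental regulators carry the mark.

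The letters around the commonest core of the mark's sequence, GGAC, are shown for the member regions that could be read. Of the 2776 members, 12 overlapped by 30 or more bases a promoter window of a neighbouring RefSeq gene (assembly GRCm38.p6, the coordinates of build mm10), and 1306 bases of them were read. These 12 are an incidental subset, set by where a neighbouring gene starts. GGAC on the strand of the host transcript was present in 7 of the 12, with 10 copies in all, and GGACT in 3 of them, with 3 copies. Each window below has 30 bases, written 5′ to 3′ on the transcript strand, with the GGAC copy that, among the bases read, lay nearest to the midpoint of the region in capitals. Of some regions only a part was read, such as 74 of 640 bases of Mvb12b, so a nearer copy may lie in the rest.
Cox10, chr11:63964052-63964081, minus strand: cagacagacacacGGACagcactgccctgg
Zfp169, chr13:48491173-48491202, minus strand: gctctgttgcagaGGACaagtccaacgaga
Mvb12b, chr2:33733233-33733262, minus strand: ccctgcctccctgGGACcgttgttcataat
Lhx2, chr2:38368926-38368955, plus strand: acgctgcagacagGGACgccgtcagggccc
Lzts3, chr2:130635401-130635430, minus strand: agcaacaactgaaGGACtctcaggccgatg
Lipt2, chr7:100160375-100160404, plus strand: cgttaatctctgaGGACagccccagctgaa
Cd276, chr9:58526166-58526195, minus strand: ttacttttccaatGGACttaattcccatca

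The capitals of Lzts3 and Cd276 are followed by t, which makes the 5-letter form GGACT, and the third GGACT copy lay elsewhere in the Lipt2 region. GGAC lay 9 bases from the midpoint of the Lzts3 region, 29 in Cox10, 30 in Lipt2, 46 in Zfp169, 77 in Lhx2, 126 in Cd276 and 263 in Mvb12b. In the bases read of Gal3st3, Taf3, BC052040, Dclre1b and Zfp94 these letters were not found. Stretches of the same length and offset were read in all 32851 RefSeq promoter windows of 300 bases, each only on the strand of its own gene. They held GGAC in 21.1% to 46% of cases, depending on the length read. The presence of these letters is therefore a description and marks no methylated base. The genes around these windows have varied roles: Lhx2 encodes a LIM homeobox factor of the early forebrain, Cox10 an assembly factor of cytochrome c oxidase, Lipt2 an enzyme of lipoate attachment, Mvb12b a subunit of the ESCRT-I sorting complex and Cd276 an immune checkpoint surface protein.

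Along the last exon the regions were most frequent just after its beginning. Of all shared regions in last exons, the 5% step from 5% to 10% of the exon's length held the most, 791 (16.5%), against 485 in the first step, 604, 482 and 412 in the next 3, and 290 in the first step past the limit. The last step held 15. In bases, the midpoint of a member lay a median of 262 after the first base of the last exon (quartiles 175 and 430.25, range 2 to 2693). Within 50 bases of the last splice junction lay 41 members and within 100 bases 182 (6.56%), while 920 (33.1%) lay within 200 and 2012 (72.5%) within 400.

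**Figure D1:**
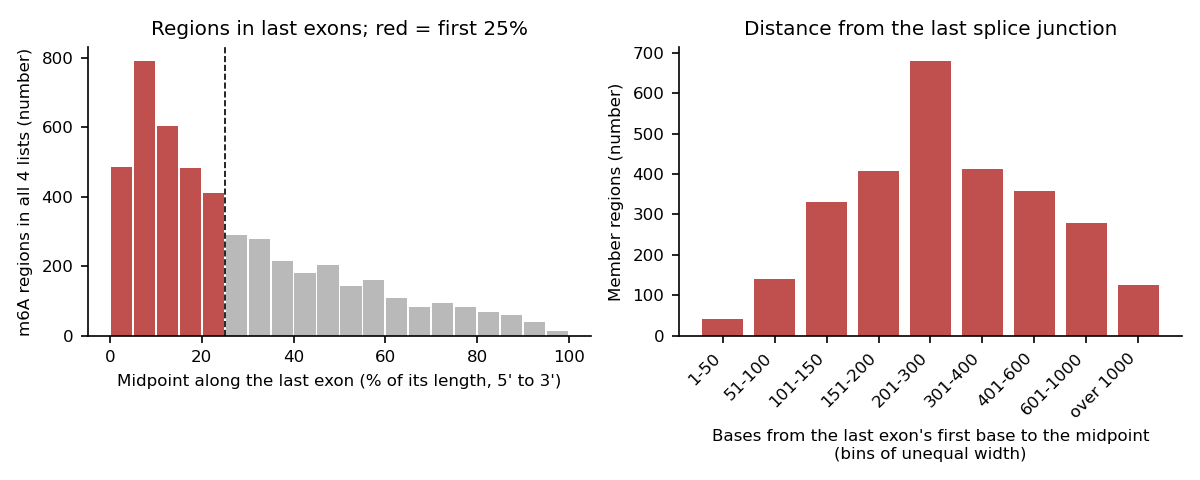
Left, number of m6A regions shared by all 4 lists per 5% step of the last exon's length, with the first 25%, the members, in red. Right, number of members by distance in bases from the first base of the last exon to the midpoint, in steps of unequal width. The step from 5% to 10% holds 791 regions, and 680 members lie 201 to 300 bases after the junction.

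The distance grew with the exon, which the rule partly sets, since a short last exon has a short first part. In the shortest quartile of the members' last exons (351 to 1902 bp) the median distance was 193 bases, or 15.7% of the exon, and in the longest quartile (4428 to 24289 bp) it was 411 bases, or 7.17%. In between, the medians were 259.5 and 309 bases. The last exons themselves were long: their median was 2776 bp over the 2512 hosts (quartiles 1818.8 and 4124.2), against 1066 bp over all 20343 transcript models with more than 1 exon. The longest, with 24289 bp, belonged to Zbtb20, a zinc finger and BTB-domain repressor of hippocampal development, whose region chr16:43618644-43618779 lay 1.6% into it.

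The median width of the members was 183 bp (quartiles 105 and 304), above the 166 bp of regions deep in last exons. It was also above the 170 bp in internal exons and the 112 bp in first exons. The widest was 1543 bp, in the last of 6 exons of Armcx4 (chrX:134689384-134690926), an armadillo-repeat gene of the X chromosome, and one of the narrowest among the genes named here had 4 bp, in the last exon of Sox8 (chr17:25567992-25567995). A single member was found in 2271 hosts, 2 in 221, 3 in 17, and 4 in 3 hosts. Those 3 were Prdm2, a histone methyltransferase gene, Asxl2, a partner of the BAP1 deubiquitinase, and Zfp704, a zinc finger gene. The 4 stretches of Asxl2 lay 290, 793, 1246 and 1580 bases into a last exon of 6871 bp. In at least 1 list, 366 members shared a peak with another member, but no pair shared a peak in every list. For 1357 hosts (54%) the members were the only shared m6A regions in their exons, whereas 22.5% also had a region deep in the last exon, 21.7% in an internal exon and 11.7% in the first exon.

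The fold enrichment of a peak over its input is the authors' own value and, with the peak call itself, chose the members, so it is described with no test. The median fold of the members was 4.19 and 4.23 in the lists of the immunoprecipitation cz3 and 3.98 and 3.99 in those of cz4. Regions deep in last exons had medians of 4.24, 4.27, 4.02 and 4.04, regions in first exons 4.24, 4.28, 3.96 and 3.98, and regions in internal exons 3.93, 3.91, 3.60 and 3.63. Early members thus sat beside the deep and first-exon regions and above the internal ones in each list. Across the 2776 members the rank correlation of folds was 0.81 to 0.90 between pairs of lists, of which all but 2 pairs share a library.

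The 12 members of the highest enrichment, ranked by the lowest of their 4 folds, are given with their values in each list. The strongest lay in the last of 16 exons of Shank2 (chr7:144420798-144421124), a scaffold protein of excitatory synapses, with folds of 9.83, 10.4, 11.4 and 10.0. Camk1d, a calcium- and calmodulin-dependent kinase, followed with 10.6, 10.1, 9.12 and 8.52 in a stretch of 77 bp (chr2:5298824-5298900). Both are more than 2 times the median of 3.70 that the lowest fold takes over all members. Otub2, a deubiquitinase (chr12:103404341-103404627), had a lowest fold of 8.10, Hivep2, a zinc finger transcription factor (chr10:14149309-14149678), 8.08, and Fam134b, a receptor for autophagy of the endoplasmic reticulum (chr15:25971820-25972013), 8.02. The other 7 had lowest folds of 7.99 to 7.23 and lay in Tenm4 (a teneurin adhesion receptor), Ebf3 (a helix-loop-helix factor of neuronal differentiation), Sde2, Adcy1 (a calmodulin-stimulated adenylyl cyclase), Lrig2 (a leucine-rich transmembrane protein), Irgm1 (an interferon-inducible GTPase) and Daam2 (a formin of the Wnt pathway). Tenm4 spread most in the raw values, from 7.99 to 11.7.

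**Figure D2:**
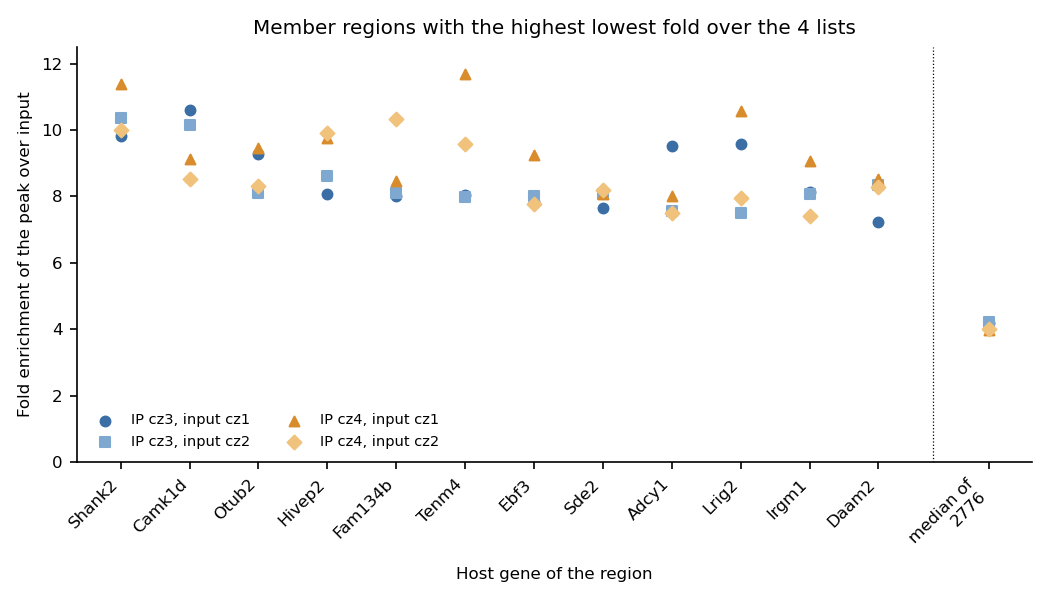
Fold enrichment of the peak over input in each of the 4 lists for the 12 members with the highest lowest fold, and, at right, the median over all 2776 members. All 12 lie above 7 in every list, while the medians of all members lie between 3.98 and 4.23.

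The limit of 25% passes through a continuous range. Just inside it lay the regions of 2510003E04Rik and Map3k10, both at 25% after rounding, with folds of 2.44 to 2.72 and 4.26 to 5.30. Just outside lay regions of Kcnj2, an inward-rectifier potassium channel gene, at 25.0047% (folds 6.59 to 6.90), and of Msl2 at 25.0059% (folds 3.02 to 3.33). Msl2 has another region at 5.0% of its last exon, which is a member.

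The RNA libraries were not used by the rule, and they show how transcripts with these regions behaved when Mettl14 was deleted. They held 14087371 to 20046524 fragments each, and no effect on exon 2 alone can be read from gene totals: Mettl14, which hosts no member, stood at 23.5, 25.2 and 23.0 CPM (the share of a library's counts on a fixed scale, after TMM adjustment) in WT, 24.5, 23.0 and 24.9 in Het and 23.4, 20.9 and 23.4 in KO libraries of batch 1, and at 39.9 and 37.2 against 31.9 and 23.9 in WT and KO of batch 3. The summed level of 7 progenitor markers was 5370 to 6170 FPKM in WT, 6490 to 6940 in Het and 2660 to 4040 in KO libraries. A sum is weighted toward the most abundant genes, and the markers did not share a direction. Pax6, the 1 host among them, was lower in KO. Of the other 6, 2 were higher and 3 lower, with a median log2 fold change of -0.15. All 6 microglia, 6 endothelium and 6 fibroblast and pericyte markers were under 1 FPKM in every library. The fibroblast and pericyte markers summed to 0.219 to 0.897 FPKM in WT and 0.988 to 1.38 in KO libraries, and 2 of the 3 tested were higher in KO. The 6 neuron markers summed to 7.03 to 16.1 in WT and 7.08 to 21.1 in KO, and 5 choroid plexus markers to 2.18 to 10.1 in WT and 0.142 to 1.79 in KO. What part these marker sums had in the host results was not tested, and fewer cells of a type cannot be told apart from less RNA per cell. The cultures are numbered, but nothing says whether they came from separate embryos, so a p-value measures the spread between these libraries, which may be technical.

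Host transcripts were more often higher than lower in KO cells. Over both batches, with batch as a term in the fit, 2422 loci holding 2424 hosts were tested, of which 60 hosts shared a locus with another gene, and 88 hosts were not tested. At an edgeR adjusted p of 0.05, 1140 host loci (47.1%) were higher and 550 (22.7%) lower in KO, beside 32.8% higher and 30.8% lower of all 13471 loci tested, and 732 were not called. The median log2 fold change was 0.18 over the hosts and 0.03 over all loci. In 894 hosts (36.9%; 24.5% of all loci) every KO library lay above every WT library within both batches, and in 426 (17.6%; 23.3% of all) every KO library lay below.

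Both batches showed the same lean. In batch 1, 1197 of 2497 host loci (47.9%) were higher and 662 (26.5%) lower, beside 34.2% and 34.9% of all loci. In batch 3, with 2 libraries a group, 691 of 2498 (27.7%) were higher and 287 (11.5%) lower, beside 17.3% and 14.5%. The batch 3 counts rested on single libraries, and leaving out 1 leaves a group with 1 library. Without WT replicate 1, WT replicate 2 or KO replicate 1, the share of hosts that fell was near that of all loci. Without KO replicate 2 it was lower. The median log2 fold change of hosts was 0.162 and 0.159 without WT replicates 1 and 2, and 0.101 and 0.222 without KO replicates 1 and 2. Over all loci it was 0.00983, 0.00442, 0.000855 and -0.00993 in the same order. Loss of 1 copy of Mettl14 gave no call among the hosts by edgeR in batch 1, where all loci gave 0.0146% higher and 0% lower: 241 of 2497 hosts had an unadjusted p below 0.05, beside 1174 of all 13665 loci, and DESeq2 called 2 hosts higher and 2 lower (0.0801% each), beside 0.102% and 0.0878% of all loci. Both are near the background. The Het comparison shares its WT libraries with the KO comparison of batch 1.

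Genes with regions elsewhere in the last exon gave similar counts. Hosts whose only shared regions were members had 509 higher (39.5%) and 334 lower (25.9%) of 1289. Among genes with a region deep in the last exon and no member, 521 of 1113 were higher (46.8%) and 238 lower (21.4%). Genes with a region in an internal exon and no member had 41.5% higher and 27.7% lower of 1073, those with one in the first exon 34.6% and 34.1% of 589, and genes with no shared region in their exons 25.7% and 34.5% of 8409. The share of rises was thus lowest in genes without a region and highest, at nearly equal values, in all hosts and in genes with a deep region. Hosts with member regions only, at 39.5%, lay below the genes with a deep region (46.8%) or an internal region (41.5%) and no member. The top rank of all hosts therefore does not hold for hosts with member regions only.

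**Figure D3:**
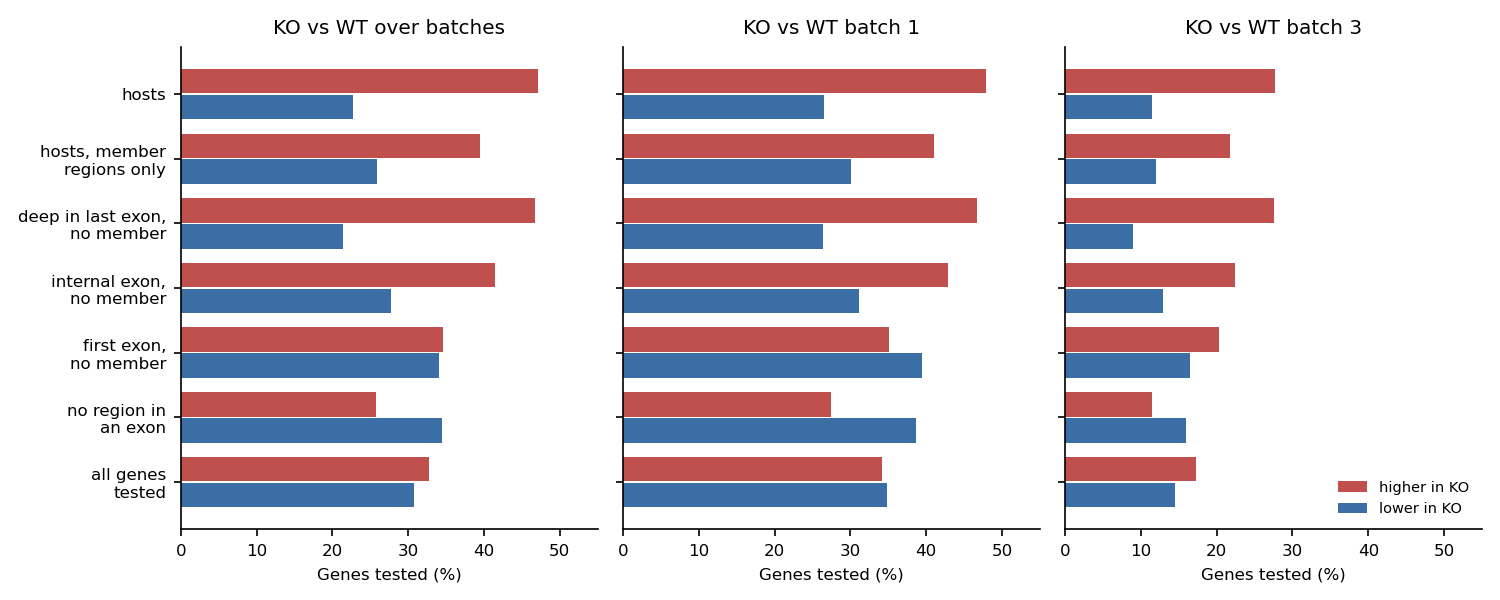
Share of loci tested that were higher (red) or lower (blue) in KO at an edgeR adjusted p of 0.05, for hosts, hosts with member regions only, other region classes without a member, genes without a region, and all genes tested. In each panel (both batches together, batch 1, batch 3) the red bar of the hosts is longer than that of all genes and the blue bar shorter.

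WT level and exon length moved with being a host. The median WT level was 11.54 FPKM for hosts and 8.27 for loci without a region. Within quartiles of all tested loci by WT level, hosts were higher in KO in 47.8%, 53.7%, 47.4% and 33.2% of cases from the lowest to the highest quartile, and loci without a member in 33.8%, 37.9%, 31% and 17.1%. Falls among hosts ran 22.8%, 16.6%, 22.9% and 34.1%, and among loci without a member 18.6%, 25.2%, 34.2% and 52.6%. In each level quartile the share of rises was larger in hosts, whereas in the lowest quartile the share of falls was larger in hosts as well. Within quartiles by last-exon length, 46.5%, 37.2%, 43.2% and 50.9% of hosts rose, against 24.6%, 30.7%, 31.4% and 31.1% of the others, with 43 hosts in the shortest quartile.

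Hosts with several members rose more often in these counts. Of hosts with 1 member 46.2% were higher and 23.2% lower, of those with 2 members 54.5% and 19.4%, and of the 20 with 3 or more, 13 were higher and 1 lower. By quartiles of the fold enrichment of a host's best member, the share higher was 41.7%, 45.5%, 51.5% and 49.7%. No test of these trends was made.

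Hosts were named for size of change among called ones whose KO and WT values did not overlap within a batch, and the folds that chose them are descriptions. The largest rise was that of Cdc42ep3. This gene, an effector of the small GTPase CDC42, stood at 5.45, 3.53 and 3.31 CPM in WT and 55.2, 38.9 and 41.5 CPM in KO libraries of batch 1, and at 0.789 and 1.42 against 27.7 and 19.4 CPM in batch 3. Its KO libraries all lay above its WT libraries, with a log2 fold change of 3.75 ± 0.23 (SE; edgeR adjusted p = 5.0e-08). Its region lay 159 bases into the last of 2 exons (chr17:79335506-79335609). Tnrc6c, a GW182 protein that carries out silencing by microRNAs, rose from 115, 122 and 129 CPM to 621, 656 and 670 CPM in batch 1, and from 86.5 and 98 to 646 and 375 CPM in batch 3 (log2 fold change 2.43 ± 0.12 SE; edgeR adjusted p = 1.1e-08). The Het libraries of Tnrc6c, at 110, 115 and 127 CPM, lay with the WT libraries.

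Atxn1, the nuclear protein ataxin-1, stood at 10.6, 11.1 and 9.14 CPM in WT and 56.6, 99.2 and 70.6 CPM in KO of batch 1, and at 2.5 and 3.19 against 24.6 and 12.8 CPM in batch 3. Sspn, the dystrophin-complex protein sarcospan, had the smallest standard error of the 12 (0.08), with 27.2, 29.7 and 29.6 CPM in WT, 156, 136 and 137 CPM in KO of batch 1, and 28.4 and 26.7 against 154 and 130 CPM in batch 3. Neither gene had overlapping groups, and their log2 fold changes were 2.83 and 2.33. Shisa9, an auxiliary subunit of AMPA receptors, rose by 4.48 in batch 1 and 2.14 in batch 3 on the log2 scale, a difference between the batches with an edgeR adjusted p of 0.0439. Fam134b, among the 12 most enriched, rose by 3.65 in batch 1 and had 0.85 in batch 3, where its 4 libraries ran from 0.993 to 2.02 CPM. Also among the 12 largest rises were Apcdd1 (log2 fold change 2.88) and Smad7 (2.58), taken up with their pathways below, Sncaip (2.37; the synuclein-binding protein synphilin-1), Lrrtm4 (2.46; a synaptic adhesion protein), Zfp677 (2.48) and Gm13251 (3.11), whose counts were deposited on a locus joined with Gm13139.

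The largest fall was that of Cdh19, a cadherin. It stood at 20.9, 19.2 and 20.3 CPM in WT and 0.713, 0.417 and 0.956 CPM in KO of batch 1, and at 25.1 and 42.4 against 1.95 and 1.08 CPM in batch 3. The log2 fold change of Cdh19 was -4.68 with a standard error of 0.21 (edgeR adjusted p = 5.7e-09). Its Het libraries, at 25.8, 24.6 and 26.5 CPM, lay above all 3 WT libraries of the batch, with a log2 fold change of 0.34 that was not called. Itga4, integrin alpha 4, had 73.5, 68.8 and 72.3 CPM in WT and 3.13, 1.79 and 4.26 CPM in KO of batch 1, and 119 and 288 against 27.6 and 23.0 CPM in batch 3. Gpr126, an adhesion receptor known from Schwann cell myelination, had 34.4, 22.2 and 29.1 CPM against 1.76, 1.73 and 1.54 CPM, and 41.6 and 51.5 against 3.28 and 3.68 CPM. In all 3 genes the KO libraries lay far below every WT library.

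A pair of transcripts from patterning loci fell, En2, a homeobox gene of the midbrain and hindbrain, and Six3os1, a long noncoding RNA transcribed opposite Six3. Six3os1 had 32.8, 29.2 and 34.4 CPM in WT and 1.65, 1.79 and 1.62 CPM in KO of batch 1, and 87.9 and 45.1 against 1.88 and 2.35 CPM in batch 3. Its log2 fold change was -4.56 and that of Six3, also a host and a regulator of the anterior forebrain, -2.86; whether the counting used the strand is not given in the sources used here, so reads of the 2 genes may be mixed. En2 was low throughout, at 1.27, 1.86 and 3.31 CPM in WT and 0.165, 0.476 and 0.221 CPM in KO of batch 1. Trim71, a let-7 target that maintains progenitor states, had 1.97, 2.40 and 3.15 CPM against 0.165, 0.298 and 0.147 CPM in batch 1, and 3.48 and 2.20 against 0.209 and 0.301 CPM in batch 3. Both stayed without overlap, with log2 fold changes of -3.63 and -3.51. The rest of the 12 were Arhgap29 (-3.71; a GTPase-activating protein), Frrs1l (-3.28; an AMPA receptor assembly factor), Diras2 (-3.16; a small GTPase), Adamts14 (-3.12; a procollagen protease), Cd93 (-3.11; a surface glycoprotein also known from endothelium) and Ppp1r3b (-3.09; a glycogen-targeting subunit of protein phosphatase 1), which had 0 counts in 1 KO library of batch 1.

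**Figure D4:**
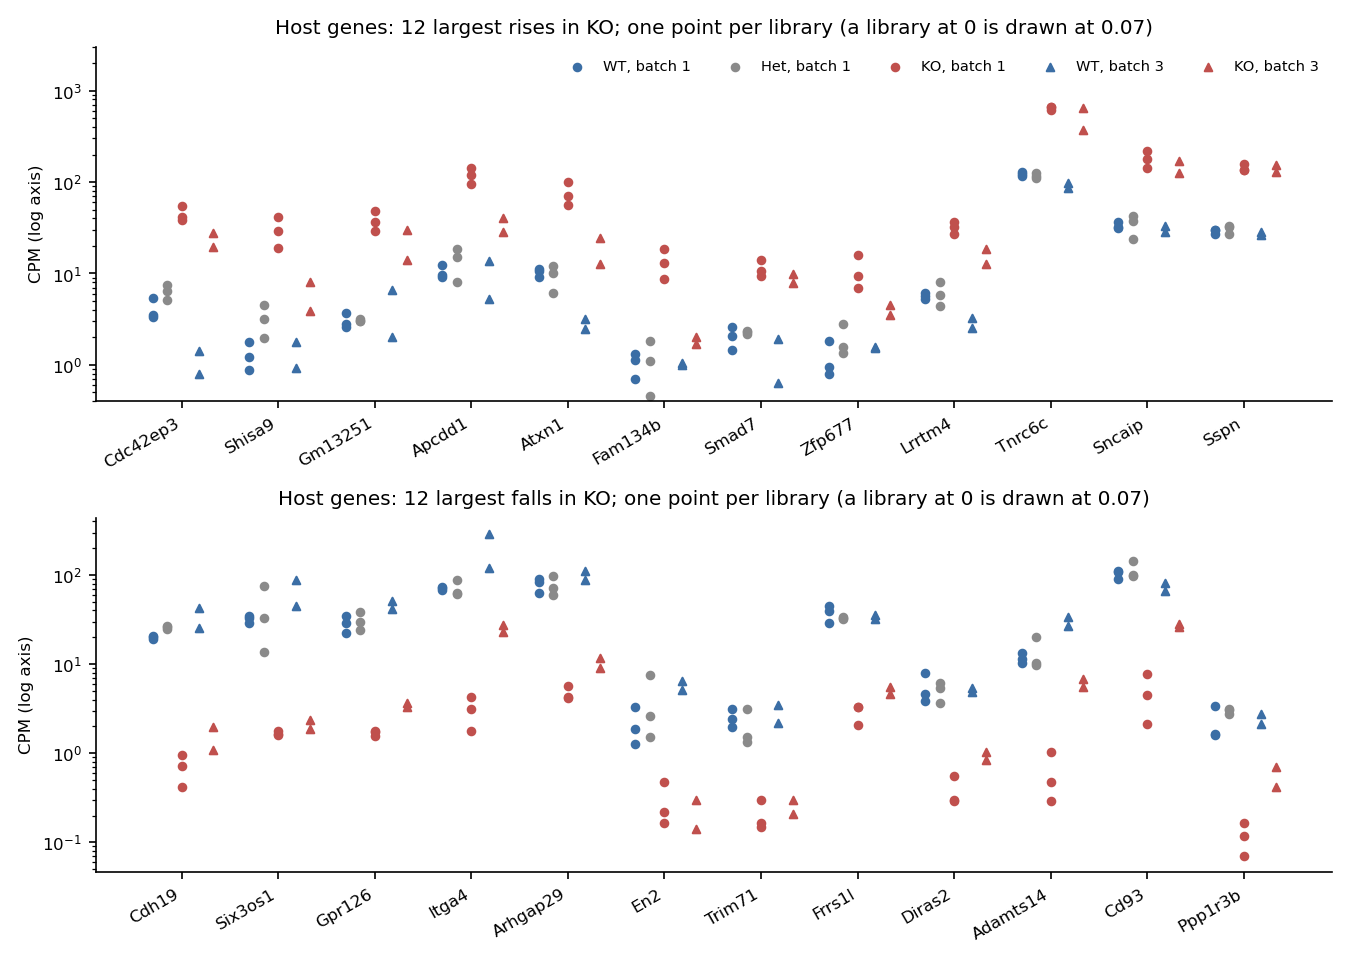
CPM on a log axis, one point per library (circles batch 1, triangles batch 3), for the 12 hosts with the largest rise (top) and the largest fall (bottom) among those called with no overlap in either batch. The Het libraries (grey) lie near the WT libraries (blue) and apart from the KO libraries (red) for most genes, and the libraries of Fam134b lie close together in batch 3, from 0.993 to 2.02 CPM.

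The 12 genes with the strongest m6A enrichment did not share a direction, and neither did the hosts as a whole, of which 47.1% were higher and 22.7% lower. Of the 12, Fam134b, Tenm4 (1.58), Daam2 (1.31), Irgm1 (1.23), Shank2 (0.74) and Sde2 (0.50) were higher in KO, and Ebf3 (-2.17), Adcy1 (-1.38) and Camk1d (-0.92) lower, as log2 fold changes. Otub2, Hivep2 and Lrig2, at 0.16, 0.32 and 0.09, were not called. Shank2 had 3.80, 3.33 and 4.01 CPM in WT and 5.49, 7.74 and 4.85 CPM in KO of batch 1, and 6.31 and 7.51 against 16.4 and 7.84 CPM in batch 3, so its groups did not overlap but came close. Ebf3 had 9.26, 7.93 and 10.3 CPM against 2.69, 2.56 and 2.06 CPM, and 32.0 and 27.4 against 5.79 and 4.64 CPM, well apart. Daam2 had a log2 fold change of 1.97 in batch 1 and 0.10 in batch 3, where its groups overlapped, and the difference was not called (edgeR adjusted p = 0.0647).

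Zinc finger genes named Zfp were the most numerous family. Of 362 such genes 150 were hosts, and of the 137 tested 101 were higher and 8 lower in KO, with a median log2 fold change of 0.59. Members of the family without a member region also leaned upward, with 98 higher and 18 lower of 171 and a median of 0.35. The largest rise was that of Zfp677 (48 bp of member region, chr17:21397046-21397093), from 0.951, 0.799 and 1.82 CPM to 6.91, 15.9 and 9.48 CPM in batch 1, and the largest fall that of Zfp862-ps, at -0.79, from 19.1, 18.8 and 19.5 CPM to 10.8, 9.76 and 10.4 CPM. Zfp960 (1.71), Zfp51 (1.66) and Zfp97 (1.58) followed on the side of the rises. Many of these genes encode repressors with near-identical copies in clusters, and the authors' counting could split reads between copies, so single values are uncertain.

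In the bone morphogenetic protein and TGF-beta pathway, where ligands bind paired receptor kinases that phosphorylate SMAD proteins, 9 of 10 tested hosts were higher and none was lower in KO (median 0.46 on the log2 scale); 7 of 16 tested non-hosts were higher and 2 lower. The receptors Bmpr1a (0.67), Acvr2a (0.59) and Bmpr1b (0.31) were higher, as were the signal carriers Smad1 (0.49), Smad3 (0.41) and Smad2 (0.18). Acvr1, at 0.33 (edgeR adjusted p = 0.0512), was not called. Among the inhibitors, Ski (0.85) and Skil (0.42) rose, and Smad7, which blocks receptors, rose most: it had 2.09, 2.60 and 1.44 CPM in WT and 10.7, 13.9 and 9.33 CPM in KO of batch 1, and 1.91 and 0.638 against 9.84 and 7.78 CPM in batch 3. 

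In the Notch pathway, in which a ligand on one cell releases the receptor's intracellular part in its neighbour, 6 of 7 tested hosts were higher and 1 lower (median 0.74); of 16 non-hosts 7 were higher and 2 lower. The receptor Notch2 had 70.4, 84.9 and 89.0 CPM in WT and 278, 337 and 314 CPM in KO of batch 1, and 81.3 and 74.4 against 152 and 99.3 CPM in batch 3. Notch1 had 247, 258 and 272 against 516, 538 and 526 CPM in batch 1, and 351 and 366 against 538 and 352 CPM in batch 3, where 1 KO library fell among the WT libraries. The change of Notch2 differed between the batches by -1.23 (batch 3 minus batch 1, log2; edgeR adjusted p = 0.00343) and that of Notch1 by -0.71 (edgeR adjusted p = 0.0237). The ligand Dll1 (0.70), the coactivator Maml1 (0.76) and the target Hey1 (0.88) were higher. The ligand Jag1 (-0.31) was lower and the DNA-binding factor Rbpj (0.25) higher with calls that were lost when single libraries were left out, down to -0.22 (edgeR adjusted p = 0.123, without KO replicate 1 of batch 1) for Jag1 and 0.165 (0.166, without WT replicate 1 of batch 1) for Rbpj. Maml2 was not tested over the batches.

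In the Wnt pathway 4 of 8 tested hosts were higher and 1 lower, beside 7 and 5 of 21 tested non-hosts; the share higher is near the 47.1% of all hosts. The higher ones included the membrane-bound inhibitor Apcdd1, with 9.57, 12.3 and 9.20 CPM in WT and 94.3, 142 and 120 CPM in KO of batch 1 and 13.6 and 5.25 against 40.3 and 28.1 CPM in batch 3, the receptor-clearing ligase Znrf3 (0.87), the destruction-complex scaffold Axin2 (0.74) and the receptor Fzd5 (0.60). Apcdd1, Znrf3 and Axin2 are known as brakes on the pathway. The ligand Wnt7a was lower (-0.43), while Wnt7b (0.03), Apc (0.18) and Fzd3 (0.20) were not called. In the Hedgehog list Gli2, a transcription factor of the pathway, was higher (1.99), from 1.77, 3.40 and 2.73 CPM to 12.9, 14.8 and 11.2 CPM in batch 1 and from 7.37 and 12 to 33.1 and 25.7 CPM in batch 3; Gli3 (-0.20) and Sufu (0.10) were not called.

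Receptors and feedback genes of EGF and FGF signalling were common among hosts, 15 of the 23 listed, and went both ways: 4 of the 14 tested were higher and 6 lower, beside 2 and 3 of 7 tested non-hosts. Fgfr2 had 23.5, 29.6 and 23.1 CPM in WT and 112, 169 and 141 CPM in KO of batch 1, and 14.3 and 10.4 against 44.0 and 38.0 CPM in batch 3. Spry4, an inhibitor induced by the pathway, had 180, 223 and 313 against 48.9, 53.6 and 55.4 CPM, and 498 and 501 against 180 and 242 CPM. The higher genes were Fgfr2 (2.19), the exchange factor Sos1 (0.59), Egfr (0.46) and the adaptor Frs2 (0.44). The lower ones were Spry4 (-1.80), Fgfr3 (-1.46), Dusp6 (-1.06), Etv5 (-1.01), Spry1 (-0.87) and Erbb2 (-0.68), of which Spry4, Dusp6, Etv5 and Spry1 are known transcriptional targets of ERK signalling.

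Of 19 tested hosts of axon guidance, 11 were higher and 4 lower, and of 20 tested non-hosts 8 and 6. The transmembrane semaphorin Sema6a rose from 58.1, 59.5 and 62.2 CPM to 179, 221 and 194 CPM in batch 1 and from 105 and 103 to 343 and 279 CPM in batch 3 (log2 fold change 1.67 ± 0.07 SE; edgeR adjusted p = 5.2e-09). The semaphorin receptor genes Nrp2 (1.58) and Nrp1 (0.89), the ephrin Efnb1 (1.27) and the ephrin receptors Ephb2 (1.12) and Ephb3 (1.09) were also higher. The secreted semaphorin Sema3c fell most, from 14.5, 11.9 and 13.1 CPM to 1.26, 0.893 and 1.10 CPM in batch 1 and from 8.55 and 17.4 to 3.56 and 2.65 CPM in batch 3, and the secreted Ntn1 (-0.60) and Sema3a (-0.40) and the ephrin Efnb2 (-0.39) were lower.

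Progenitor and forebrain transcription factors were divided. Of 10 tested hosts on the forebrain list 6 were higher and 1 lower, beside 5 and 1 of 12 tested non-hosts. Zbtb20 had 91.4, 97.2 and 96.6 CPM in WT and 333, 431 and 341 CPM in KO of batch 1, and 120 and 99.4 against 282 and 139 CPM in batch 3. Nfix (1.28), Meis2 (0.65), Lhx2 (0.62) and Nfib (0.50) were higher. Pax6, which keeps radial glia dividing, was lower: it had 31.4, 36.0 and 34.5 CPM against 30.2, 27.1 and 26.9 CPM in batch 1, narrowly apart, and 44.5 and 42.9 against 22.9 and 19.8 CPM in batch 3. Nr2e1, the orphan receptor TLX of adult neural stem cells, had 18, 18.4 and 16.1 against 8.39, 11.8 and 6.83 CPM, and 50.0 and 41.4 against 13.1 and 9.77 CPM. For both genes the fall was larger in batch 3, with a difference of batch 3 minus batch 1 of -0.76 for Pax6 and -1.04 for Nr2e1 (edgeR adjusted p = 0.00539 and 0.0204). Emx2 was called higher at 0.24, a call lost without any of several single libraries (lowest 0.169, edgeR adjusted p = 0.0728, without KO replicate 1 of batch 1), and Gli3 was not called.

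Among proneural genes Dll1 and the antiproliferative Btg2 (0.68) were higher. Dll1 had a log2 fold change of 1.03 in batch 1 and 0.14 in batch 3 (edgeR adjusted p of the difference 0.0364), and Btg2 0.97 and 0.19 (0.0854). Neurod1 (-0.22) was not called. Of 4 Sox hosts, Sox5 (0.93) and Sox8 (0.47) were higher and Sox6 (-0.33) and Sox13 (-0.34) were not called, beside 6 higher and none lower of 9 tested non-hosts. Map1b, a microtubule protein of growing neurites, fell from 209, 162 and 173 CPM to 52.2, 87.5 and 75.0 CPM in batch 1, whereas Tubb3 was not called. Of 17 tested non-hosts on the same neuronal differentiation list, 3 were higher and 9 lower.

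Several hosts belong to the m6A machinery itself. The writer adaptor Cbll1 had 15.5, 14.9 and 16.6 CPM in WT and 27.2, 31.6 and 29.3 CPM in KO of batch 1, and 43.0 and 41.0 against 68.5 and 63.3 CPM in batch 3 (log2 fold change 0.80 ± 0.08 SE; edgeR adjusted p = 2.5e-06). Wtap (0.25), with 2 members in its last exon, and the readers Ythdc1 (0.66) and Ythdf3 (0.35) were higher too, all with no overlap in either batch. Of the non-hosts on the writer list 3 were higher and 2 lower of 6, and on the reader and eraser list 3 and 4 of 9.

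Several chromatin enzymes were hosts. Of 4 histone acetyltransferases, Crebbp (0.55), Kat6b (0.47) and Ep300 (0.44) were higher and Kat5 (-0.17; edgeR adjusted p = 0.060) was not called; of 6 tested non-hosts none was higher and 2 were lower. Crebbp, which acetylates H3K27, had 106, 102 and 117 CPM in WT and 166, 182 and 162 CPM in KO of batch 1, and 113 and 122 against 182 and 126 CPM in batch 3, close together in the last pair. Among Polycomb hosts, the chromobox genes Cbx8 (0.52) and Cbx2 (0.37) were higher, and Pcgf5 (-0.62), Suz12 (-0.34) and Pcgf3 (-0.27) lower, while Bmi1, Cbx7, Phc2 and Phc3 were not called; of 16 tested non-hosts 5 were higher and 7 lower. Suz12, a core subunit of the complex that methylates H3K27, had 120, 108 and 119 against 92.1, 84.0 and 90.2 CPM, and 233 and 246 against 205 and 189 CPM. The demethylase Kdm5b (0.73) and the methyltransferase-family gene Kmt2e (0.45) were higher among 5 tested H3K4 hosts, Kdm5a, Kdm5c and Kmt2a were not called, and Rbbp5 was not tested, beside 4 higher and 2 lower of 8 tested non-hosts. The deacetylase Sirt1 (0.15) was not called. Of 9 tested chromatin remodelers 6 were higher, led by Arid1b (1.03), and 2 lower, Baz1b (-0.43) and Chd1 (-0.33), whereas of 16 tested non-hosts 4 were higher and 7 lower.

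In the mRNA decay machinery 6 of 12 tested hosts were higher and 2 lower, beside 5 and 10 of 24 non-hosts. After Tnrc6c came Btg1 (0.95), Zfp36l1 (0.65), Tnrc6b (0.61), Cnot4 (0.43) and Tob2 (0.42), of which Btg1, Tob2, Cnot4 and the AU-rich element binder Zfp36l1 act with the CCR4-NOT deadenylase. The decapping enzyme Dcp2 (-0.27) and the helicase Ddx6 (-0.33) were lower. Of 23 S-phase genes 2 were hosts and of 20 mitotic genes 3, beside 2512 hosts among 20343 transcript models with more than 1 exon. The S-phase hosts Mcm5 (-1.56) and Chaf1a (-0.87) and the mitotic hosts Kif11 (-1.24), Tpx2 (-0.76) and Aurka (-0.65) were lower. Among tested non-hosts, all 21 S-phase and 15 of 16 mitotic genes were lower. Max (0.44) and Rbl2 (0.34), the hosts entered on the G1 list, were higher, beside 3 higher and 10 lower of 20 tested non-hosts. Of 6 hosts among p53 and its targets 1 was higher (Btg2) and 4 lower (led by Sesn2 at -0.56), beside 1 and 6 of 13 tested non-hosts. Egr3 (-1.47) was the 1 immediate early host of 3 that was called, beside 3 higher and 8 lower of 16 tested non-hosts. Hk1 (0.45) rose and Hk2 (-1.17) fell, beside 1 higher and 10 lower of 16 tested non-hosts on the glycolysis list. Hk2 had -2.05 in batch 1 and 0.07 in batch 3, a difference with an edgeR adjusted p of 0.0135. Srsf11 (-0.35) was the only host of 29 splicing factors, beside 24 lower and none higher of 26 tested non-hosts. None of 84 cytosolic ribosomal protein genes or 43 respiratory chain genes was a host.

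At their start sites hosts mostly carried the active mark. H3K27ac, the acetylation of active promoters and enhancers, and H3K27me3, the methylation laid down by Polycomb complexes, were counted as a peak within 1000 bp of the start of the host's transcript. An H3K27ac peak was found at 96.4% (WT line 532), 96.2% (WT line 541), 94.6% (KO line 530) and 95.2% (KO line 534) of the 2512 hosts, beside 89.5%, 88.3%, 86% and 88.6% of 13202 genes tested for RNA. In all 4 lines together it was found at 93.9%, beside 83.9%. An H3K27me3 peak was found at 9.08%, 7.84%, 9.16% and 11.4% of hosts in the same order, beside 13.2%, 11.8%, 12.8% and 15.4%, and in all 4 lines at 5.69%, beside 8.59%.

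By the direction of the RNA, the 550 hosts lower in KO had H3K27me3 at 11.6% and 10.5% in the WT lines and at 16.2% and 18.2% in the KO lines. The 1142 hosts on the loci higher in KO had it at 8.06% and 6.57% in WT and 6.39% and 8.14% in KO lines. The values of the KO lines lay above those of the WT lines for the falling hosts, and for the rising ones they overlapped them. The same shares were not computed for all genes lower or higher in KO. Whether hosts differ in this from other genes was therefore not tested. The lists differed in size, with 58863 and 33188 H3K27me3 peaks in the WT and 43186 and 59561 in the KO lines, whose part in these shares was not tested. With 2 lines a genotype an exact two-sided permutation test cannot go below 0.33, so none was made.

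**Figure D5:**
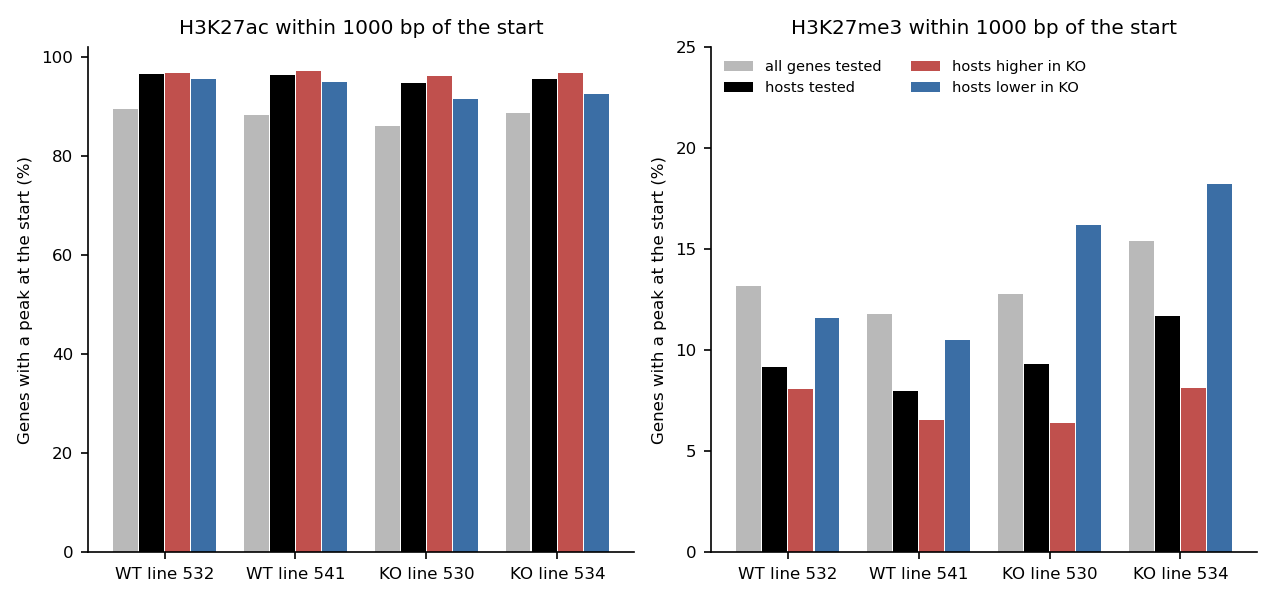
Share of genes with an H3K27ac (left) or H3K27me3 (right) peak within 1000 bp of the start in each line, for all genes tested (grey), the 2424 hosts tested (black), and hosts higher (red) or lower (blue) in KO. The 2 panels have different axes, both from 0. H3K27me3 at falling hosts is 11.6% and 10.5% in WT and 16.2% and 18.2% in KO lines.

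Some hosts carried a mark in both lines of a genotype and neither of the other. H3K27ac was found in WT lines only at 19 hosts (0.756%, beside 0.879% of all genes tested), a share near that background. Their RNA was higher in 5 and lower in 10, beside 16.4% higher and 47.4% lower of the 116 tested genes with that pattern. The 10 included Six3os1, Trim71, Six3, the protocadherin Pcdh15 (-2.99), the synaptic adhesion gene Lrrtm3 (-2.69) and Dmrta1 (-2.37), while Shank2 was among the higher ones. In KO lines only it was found at 2 hosts (beside 0.265% of all genes), Lrrtm4, whose RNA rose, and 2900026A02Rik, whose RNA was not called. H3K27me3 was found in KO lines only at 33 hosts (1.31%, beside 1.2%), with RNA higher in 8 and lower in 17, beside 13.9% and 57% of 158 tested genes with that pattern. The 17 included Gpr126, Gfra1 (-2.93; a receptor for GDNF), Cnih3 (-2.25), Atp10a (-2.24), Nr2e1 and Camk1d. Hey1 and Wtap were among the 8. In WT lines only it was found at 16 hosts (0.637%, beside 0.561%), and of the 15 tested for RNA 11 were higher and none was lower, beside 62.2% and 6.76% of 74 tested genes with that pattern. The 11 included Lingo1 (2.1), Gli2, Nrp2, Tns1 (1.47) and Daam2.

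Among the 12 hosts whose letters were read, 8 were higher in KO and none was lower, with 4 not called, beside 47.1% higher and 22.7% lower of all hosts and 32.8% and 30.8% of all loci. Lzts3 (0.83), Lipt2 (0.75), Mvb12b (0.66), Zfp169 (0.65), Lhx2 and Cd276 (0.34) were higher with GGAC in the letters read, as were Gal3st3 (0.84) and Zfp94 (0.68) without it. Cox10 (-0.17), which holds 2 copies, Taf3, BC052040 and Dclre1b were not called.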

How the data were processed

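RNA-seq covered WT, Het and KO neural progenitor cells, m6A immunoprecipitation sequencing WT cells, and ChIP-seq WT and KO lines. The submitters' processing notes name TopHat2 2.1.0, TopHat, Cufflinks, Cuffdiff, Bowtie2 2.3.1 and MACS2 with build mm10, without saying which step used which. The RNA tables, per the file headers, hold estimated counts of fragments and FPKM per locus and library, both deposited by the authors. Each peak list holds, per the file headers, a score, a fold ratio over the control, and −log10 p-values and q-values. Batch 2 was not analysed here, because its deposited table is identical to that of batch 1.

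Peak lists were intersected base by base (at least 1 bp in all 4 lists), and midpoints were placed on the batch 3 transcript models. Estimated counts were rounded, summed per gene and tested with edgeR 4.0.16 in R 4.3.3 (quasi-likelihood F test, TMM factors, filterByExpr, Benjamini-Hochberg adjustment over all loci, threshold 0.05), with limma 3.58.1 on log2(FPKM + 1) and log2(FPKM + 0.1) and DESeq2 1.42.0 as alternatives. CPM uses TMM-adjusted library totals; before adjustment the 13 libraries held 14087371 to 20046524 fragments. Regions and tables were handled in Python 3.11.15 with pandas 2.3.3 and numpy 2.4.6. The scripts were tested on simulated data. Sequences came from the RefSeq promoter windows (assembly GRCm38.p6), which covered part of 12 members; the sequence of the other members was not analysed here.

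Named items were the 12 members of highest lowest fold; the 12 largest rises and 12 largest falls among hosts called without overlap in either batch (890 and 421 candidates); hosts on 36 gene lists, with the largest called change per list and direction; regions nearest the limit; the widest member; and genes with the most members. Other genes named with values were chosen after their values were seen. The members and lists were chosen with earlier results of these data known. A few listed hosts are not reported here.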

Additional observations from a re-analysis of the deposited data

Results flagged for a closer look

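Of 112 named hosts with a value, 18 had a change in KO that differed between the batches by the interaction term of the edgeR fit at an adjusted p below 0.05; over all host loci 484 of 2422 (20%) did, beside 18.8% of all loci, a share near that background. Values are log2 differences, batch 3 minus batch 1. Among hosts higher in KO the change was smaller in batch 3 for Fam134b (-2.83), Shisa9 (-2.38), Notch2 (-1.23), Msl2 (-1.15), Dll1 (-0.94), Notch1 (-0.71) and Rbpj (-0.57), and larger for the ligase gene Znrf3 (0.75). Among hosts lower in KO the fall was smaller in batch 3 for Cd93 (2.95), Hk2 (2.08), Adamts14 (1.90), Mcm5 (1.66), Sema3c (1.53), Adcy1 (1.04), Frrs1l (1.00) and Sesn2 (0.49), and larger for the progenitor factors Nr2e1 (-1.04) and Pax6 (-0.76). The batches also differ in their culture lines and dates, which cannot be told apart here. Msl2 rose by 0.97 in batch 1 and had -0.14 in batch 3, Rbpj had 0.44 and -0.09, and Hk2 -2.05 and 0.07. For these hosts the batches gave opposite signs, and the batch 3 values were not called.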

How the results depend on the processing

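Counting only hosts whose single kind of region was a member gave 509 higher and 334 lower over the batches. DESeq2 gave 2 higher and 2 lower hosts in Het. A window of 2500 bp to each side of the start gave H3K27me3 at 391 (15.6%) and 310 hosts (12.3%) in WT lines 532 and 541. In KO lines 530 and 534 it gave 374 (14.9%) and 444 (17.7%). All genes tested had 18.9%, 15.8%, 18.1% and 20.4% in the same order. Leaving out 1 library at a time gave 1033 to 1164 hosts higher and 506 to 618 lower over the batches, 1130 to 1193 and 609 to 679 in batch 1, 382 to 970 and 154 to 487 in batch 3, and 0 to 0 and 0 to 1 in Het; in batch 3 this leaves a group with 1 library, which is assumed to vary like the other group. As shares, hosts higher over the batches were 42.7% to 48.1% in these fits, beside 29% to 33.1% of all loci. Hosts lower were 20.9% to 25.5%, beside 28.6% to 34.3% of all loci. In batch 1, 45.3% to 47.8% of hosts were higher, beside 31.6% to 33.7% of all loci. Falls in batch 1 were 24.4% to 27.2% of hosts, beside 32% to 34.7% of all loci. For the batch 3 fits, with 1 library in a group, only the effect size is set beside all loci. The median log2 fold change of hosts was 0.101 to 0.222 in these batch 3 fits, beside -0.00993 to 0.00983 over all loci. The lists of 1 immunoprecipitation alone gave 2980 to 3119 members. Among other member rules, peaks with −log10 q of 2 or more left 2338 members, overlaps of 100 bp or more 2142, and the batch 1 models gave 2937. With limma on log2(FPKM + 1), 38.4% of hosts were higher and 24.2% lower, beside 25.5% and 31.9% of all loci. No value changed sign with a call: of 90 named hosts called over the batches, 84 kept their call and direction under all 15 alternatives, and the others, among them Emx2, Jag1, Map3k10, Msl2 and Rbpj, lost the call under some; the cause was not tested. No paired analysis was possible because the RNA tables carry no number that ties libraries across genotypes, and the immunoprecipitation and input groups that share numbers enter no test. Other motif forms and windows of 100 bp around midpoints were not run, since no genome sequence was used here. Depth limits low hosts such as En2, Trim71 and Ppp1r3b, at or under 1 CPM in KO libraries.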

Other observations

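Members overlapped a RefSeq microRNA hairpin at 3 places, Mir6897 within the last exon of Uggt1 on the same strand, and Mir1905 in Mex3a and Mir6244 in Zc3h12c on the opposite strand. By chromosome, members were most numerous on 2 (226), 11 (218) and 7 (204), and 67 lay on the X chromosome.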
